A study of Mus musculus with 8 samples.

Results

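The genes described here are the SMAD family (Smad1, Smad2, Smad3, Smad4, Smad5, Smad6, Smad7 and Smad9) and the TGF-β receptors Tgfbr1 and Tgfbr2, 10 genes chosen by name out of the 55487 in the count table. All 10 had at least 10 reads summed over the 8 libraries and entered the main fits across genes. Smad9 did not enter the stricter alternative of genes with at least 10 reads in every library. Ligands of the TGF-β and BMP families bring type I and type II receptor kinases together, and the type I receptor phosphorylates the receptor-activated SMADs. Smad2 and Smad3 serve TGF-β and activin signals, Smad1, Smad5 and Smad9 serve BMP signals, and both groups enter the nucleus with Smad4. Smad6 and Smad7 are inhibitory SMADs, themselves target genes of the pathway, that block the receptors and their SMAD substrates. In hematopoietic stem cells TGF-β signaling is known for holding cells in quiescence, and BMP signaling acts on their emergence in the embryo.

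The RNA came from LT-HSCs, the long-term repopulating stem cells, which were sorted as LSK CD48-CD150+ cells from mouse fetal liver at E14.5, with 500 cells in each library. Embryos were IκBα WT (3 libraries), HET (3) or KO (2) and came from matings of HET animals of the targeted knockout line Nfkbia tm1Bal, some of which could also carry the Gfi1:tomato reporter. The allele is deleted in every cell of the embryo, so that the liver environment of the KO cells was also KO, and another KO sample was discarded by the study for its sequencing quality. WT1, WT2 and HET1 were labelled male and total RNA, whereas WT3, HET2, HET3, KO1 and KO2 were labelled female and polyA RNA, so sex and the molecule label cannot be told apart and no KO library is male.

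Between 17895973 and 21720972 reads per library lay on genes, and 3 reads corresponded to at most 0.178 CPM (reads scaled to the effective library size). Nfkbia, the deleted gene, had 1 and 0 reads in KO1 and KO2 and 243 to 1621 in the other libraries, and the Y-linked gene Ddx3y was at 114 CPM or more in the male and at most 0.0593 CPM in the female libraries. WT3 and HET3 stood apart. The summed level of 7 LT-HSC markers (Kit, Ly6a, Slamf1, Procr, Mecom, Hlf and Fgd5) was 210.2 CPM in WT3 and 189 CPM in HET3, 363 and 372 CPM in HET2 and HET1, and 665 to 1102 CPM in KO2, KO1, WT1 and WT2. In HET3 Ly6a was at 0 and Procr at 1.13 CPM, while Kit was at 135 CPM or more everywhere. A sum of 6 hepatocyte markers was 1251 CPM in WT3 and 606 CPM in HET3 against 7.54 to 228 CPM in the others. Erythroid markers summed to 8547 CPM in HET1 and to 530 to 3299 CPM in the others, with 542 and 2102 CPM in KO1 and KO2. Megakaryocyte markers summed to 1258 CPM in WT2, 1009 CPM in KO1, 107 CPM in KO2 and 23.3 CPM in HET3, and myeloid markers ranged from 128 CPM in HET3 to 865 CPM in WT3. Cd3e and Ly6g, markers of cells that the sort excludes, were at 0 in every library, and 6 stellate or stromal markers summed to at most 11.04 CPM. In bulk libraries, fewer cells of a type and less RNA per cell cannot be told apart.

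The members of the family differed widely in abundance. Per kilobase of exon, Smad4 was the most abundant with a mean of 21.7 CPM per kb over the 8 libraries, followed by Smad2 with 10.7. Smad5, Smad1 and Tgfbr1 came next with 4.39, 4.32 and 4.10 CPM per kb, values that lay closer together than the spread of any of them over libraries. Smad3 (3.20), Tgfbr2 (2.32), Smad6 (1.99) and Smad7 (1.93 CPM per kb) followed, again with overlapping ranges. Smad9 stood far below all of them at 0.0393 CPM per kb, near the level of 3 reads.

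They also differed in how much they varied between libraries. The highest library exceeded the lowest by 14.3-fold for Smad1, 11-fold for Smad6, 9.20-fold for Smad7 and 8.41-fold for Tgfbr2. The fold range was 3.22 for Smad3, 2.86 for Smad4, 2.51 for Tgfbr1 and 2.42 for Smad5, and 1.381 for Smad2, the smallest. Over the 10099 genes with a mean of at least 5 CPM the median fold range was 2.06, with quartiles of 1.59 and 3.13.

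**Figure D1:**
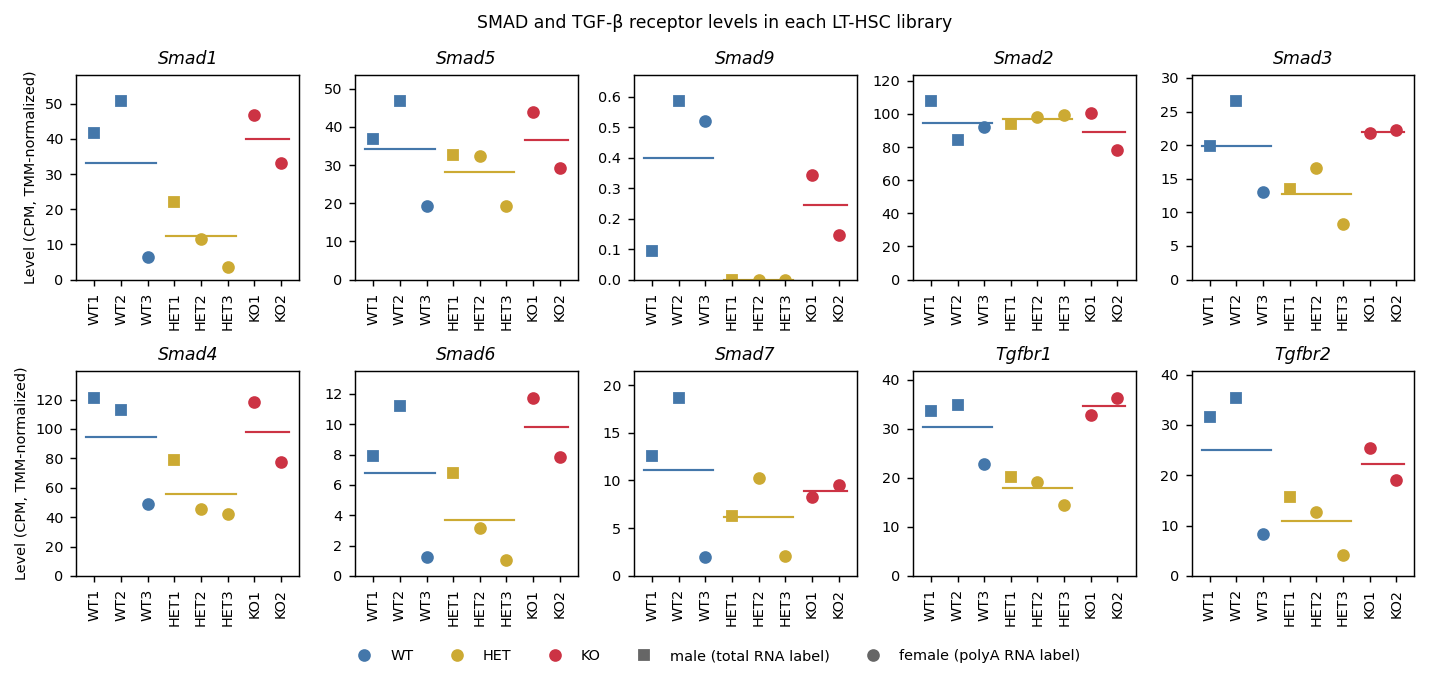
Level of each SMAD and TGF-β receptor gene in CPM (vertical axis, from 0, TMM-normalized) in each of the 8 libraries, colored by genotype with horizontal lines at the group means, squares for male and circles for female embryos. Smad1, Smad6, Smad7 and Tgfbr2 were lowest in WT3 and HET3, Smad2 was level across libraries, and no gene had both KO libraries above all WT and HET libraries.

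Of the BMP-branch SMADs, Smad1 varied most. Smad1 (ENSMUSG00000031681, GRCm38 chr8:79338395-79399518, minus strand) was at 41.8, 50.7 and 6.51 CPM in WT1, WT2 and WT3, at 22.2, 11.5 and 3.56 CPM in HET1, HET2 and HET3, and at 46.8 (KO1) and 33.2 CPM (KO2). Both KO libraries lay above WT3 and all HET libraries, KO1 also above WT1, and KO2 below WT1 and WT2. With sex in the model, the edgeR log2 fold change of KO over WT/HET was 2.47 (SE 0.497, 95% confidence interval 1.34 to 3.61) with an adjusted p of 0.148. Since no KO library is male, this fit in effect sets the KO libraries against WT3, HET2 and HET3, which averaged 7.19 CPM ± 4.02 (SD, n = 3) against 40.0 ± 9.57 (SD, n = 2) in KO. Without WT3 and HET3 the log2 fold change was 1.77 (0.443 to 3.09), and with all libraries but no sex term it was 0.82 (-1.11 to 2.74).

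Smad5, which shares the BMP signal with Smad1, varied less. Its level was 36.9, 46.7 and 19.4 CPM in the WT libraries, 32.8, 32.3 and 19.3 CPM in HET, and 43.8 and 29.2 CPM in KO. KO2 lay below HET1 and HET2, and the log2 fold change of 0.62 (-0.07 to 1.32) did not pass the test. Part of the Smad5 exons overlaps the annotated gene Gm27301 on the same strand, so reads there may be ambiguous. Smad9, also of this branch, had 2, 14 and 10 reads in WT, 0 in each HET library, and 7 and 3 in KO. These counts are at or near the floor of 3 reads, and no fold is given. Within the branch the balance of Smad1 to Smad5 moved with the library. The log2 ratio of their levels per kb was 0.43 and 0.36 in WT1 and WT2, -0.32 in HET1, 0.34 and 0.43 in KO1 and KO2, and -1.33, -1.25 and -2.19 in WT3, HET2 and HET3.

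Of the TGF-β and activin SMADs, Smad2 was the steadiest gene of the family. It was at 107.6, 84.3 and 92.2 CPM in WT, at 94.1, 98.1 and 99.1 CPM in HET, and at 100.7 and 77.9 CPM in KO. KO1 lay inside and KO2 below the range of the other libraries, WT3 and HET3 were no lower than the rest, and the log2 fold change was -0.11 (-0.51 to 0.28). Smad3, its partner, was at 19.9, 26.5 and 13.0 CPM in WT, at 13.5, 16.6 and 8.24 CPM in HET, and at 21.8 and 22.3 CPM in KO. Both KO libraries were above the female references and below WT2, and the log2 fold change was 0.80 (-0.03 to 1.64). Smad2 made up 33.2% to 70.8% of the summed receptor-activated SMAD level per kb, with the smallest share in WT2 and the largest in HET3, and 39.8% and 40.1% in KO1 and KO2.

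Smad4, the common partner of both branches, was at 121.3, 112.8 and 48.7 CPM in WT, at 79.1, 45.3 and 42.4 CPM in HET, and at 118.0 and 77.3 CPM in KO. WT1 and WT2 were at or near the KO1 level, and HET1 was near KO2. With sex in the model the log2 fold change was 1.10 (0.56 to 1.65, adjusted p = 0.148 by edgeR). It was 1.08 (0.15 to 2.01) without WT3 and HET3, which leaves HET2 as the only female reference, and 0.38 (-0.63 to 1.39) with no sex term.

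The inhibitory SMADs were low and varied strongly. Smad6 (ENSMUSG00000036867, GRCm38 chr9:63953076-64022059, minus strand), which acts mainly on BMP signals, was at 7.91, 11.2 and 1.25 CPM in WT, at 6.81, 3.18 and 1.07 CPM in HET, and at 11.7 and 7.87 CPM in KO. KO1 was the highest of all 8 libraries, and KO2 lay below WT1 and WT2. The log2 fold change was 2.41 with sex in the model (SE 0.537, 1.18 to 3.64, adjusted p = 0.148 by edgeR). It was 1.59 (0.20 to 2.99) without WT3 and HET3, and 0.90 (-0.96 to 2.77) with no sex term.

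Smad7, which blocks TGF-β and BMP receptors alike, had no KO library near its highest level. It was at 12.5, 18.7 and 2.03 CPM in WT, at 6.33, 10.2 and 2.08 CPM in HET, and at 8.22 and 9.54 CPM in KO. Both KO libraries lay below WT1, WT2 and HET2. The log2 fold change was 0.89 with sex in the model, with an interval of -0.82 to 2.60, and it turned to -0.23 (-1.76 to 1.29) without WT3 and HET3. Without HET2 it was 2.11 (0.86 to 3.37), so the value rests on which of the female references are kept. The log2 ratio of Smad6 to Smad7 per kb was -0.17, -0.24 and -0.20 in WT, 0.60, -1.19 and -0.46 in HET, and 1.01 and 0.22 in KO. KO1 had the highest ratio, but KO2 lay below HET1.

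Set against the receptor-activated SMADs, the inhibitory SMADs fell into 2 levels that did not follow genotype. The log2 ratio of Smad6 plus Smad7 to Smad1, Smad2, Smad3, Smad5 and Smad9, each per kb, was -2.39, -1.92 and -4.31 in WT, -2.58, -2.64 and -4.33 in HET, and -2.39 and -2.28 in KO. WT3 and HET3 stood apart at 5.06% and 4.97% of the receptor-activated level, while the other WT and HET libraries and both KO libraries were at 15.998% to 26.4%. The KO mean exceeded the WT/HET mean by 0.69 on the log2 scale, which is less than the SD of 1.03 over the 6 WT and HET libraries, and KO1 and KO2 lay between WT2 and HET1. It was 0.44 without WT3, 0.43 without HET3 and 0.43 to 0.91 over all libraries left out in turn. With Smad6 alone the difference was 1.12 and with Smad7 alone 0.23, against SDs of 1.10 and 1.03. With Smad1 and Smad5 alone as the denominator, the difference was 0.23 against an SD of 0.54.

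**Figure D2:**
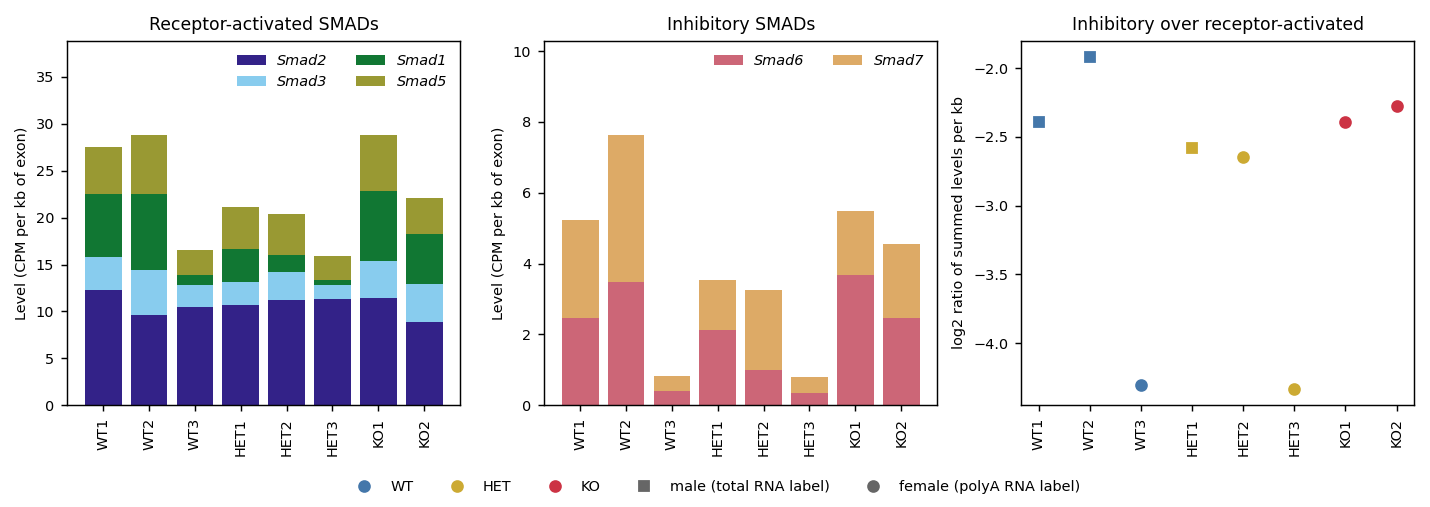
Stacked levels in CPM per kb of exon of the receptor-activated SMADs (left; Smad9 is too low to be seen and is left out) and of Smad6 and Smad7 (center), and the log2 ratio of the inhibitory to the receptor-activated sum (right), for each of the 8 libraries. Inhibitory SMADs were lowest in WT3 and HET3, at ratios of -4.31 and -4.33, and both KO libraries lay among the other WT and HET libraries.

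Smad6 and Smad1 kept close to each other. Their log2 ratio per kb was -1.35 ± 0.12 in WT (SD, n = 3), -0.80 ± 0.08 in HET (SD, n = 3) and -1.07 ± 0.06 in KO (SD, n = 2), although each gene ranged over more than 10-fold. Over the 8 libraries the centered log2 levels of this pair had a root mean square difference of 0.255, and only Smad3 and Tgfbr1 were closer among the members at 0.199.

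Of the receptors, Tgfbr1, the type I receptor kinase (ENSMUSG00000007613, GRCm38 chr4:47353222-47414931, plus strand), was at 33.6, 34.8 and 22.9 CPM in WT, at 20.3, 19.2 and 14.47 CPM in HET, and at 32.8 and 36.3 CPM in KO. KO2 was the highest library, KO1 lay just below WT1 and WT2 (means of 34.6 CPM in KO and 30.4 CPM in WT), and all 3 HET libraries were below all 3 WT libraries. The log2 fold change of KO over WT/HET was 0.87 (0.21 to 1.54, adjusted p = 0.154 by edgeR) with sex in the model, 0.82 (-0.17 to 1.80) without WT3 and HET3, and 0.51 (-0.24 to 1.27) with no sex term. It was 0.49 (-0.12 to 1.10) with WT alone and 1.09 (0.56 to 1.62) with HET alone as the reference.

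Tgfbr2, the type II receptor that binds the ligand (ENSMUSG00000032440, GRCm38 chr9:116084293-116175360, minus strand), was at 31.5, 35.4 and 8.28 CPM in WT, at 15.6, 12.7 and 4.21 CPM in HET, and at 25.4 and 19.0 CPM in KO. WT1 and WT2 were above both KO libraries, and the KO mean of 22.2 CPM was below the WT mean of 25.1 CPM. With sex in the model the log2 fold change over WT/HET was 1.40 (0.30 to 2.50, adjusted p = 0.156 by edgeR), 0.77 (-0.51 to 2.06) without WT3 and HET3, and 0.30 (-1.27 to 1.88) with no sex term. Per kb, Tgfbr1 exceeded Tgfbr2 in all 8 libraries, with a log2 ratio of Tgfbr2 to Tgfbr1 between -0.30 in WT2 and -2.11 in HET3, and of -0.70 and -1.26 in KO1 and KO2.

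The 250 bases before the RefSeq start (GRCm38.p6) of Smad6 and Tgfbr2 are shown because these are the inhibitory SMAD and the receptor with the largest fitted differences. They lie at chr9:64022060-64022309 and chr9:116175364-116175613, both on the minus strand, and are given 5′ to 3′ with a match to the SMAD-binding letters CAGAC in capitals.
Smad6: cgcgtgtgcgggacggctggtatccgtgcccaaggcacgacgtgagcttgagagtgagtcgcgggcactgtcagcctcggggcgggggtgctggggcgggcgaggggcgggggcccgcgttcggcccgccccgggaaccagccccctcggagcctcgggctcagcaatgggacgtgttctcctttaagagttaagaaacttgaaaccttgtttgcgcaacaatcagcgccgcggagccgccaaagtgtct
Tgfbr2: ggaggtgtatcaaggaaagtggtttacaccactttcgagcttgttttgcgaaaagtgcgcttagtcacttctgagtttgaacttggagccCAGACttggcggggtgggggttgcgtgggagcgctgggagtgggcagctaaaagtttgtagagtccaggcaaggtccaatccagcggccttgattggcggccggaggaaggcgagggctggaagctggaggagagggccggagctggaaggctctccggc
The CAGAC match of Tgfbr2 lies 160 to 156 bases before the start. Searched on both strands, this window of Smad6 held no CAGAC. It also held no match to the other motifs searched, which were GGCGCC, a GC-rich SMAD motif, the nuclear receptor half-site AGGTCA, and the NF-κB consensus. Of 32841 promoter windows of this length, 42.2% held CAGAC, 9.59% GGCGCC, 14% AGGTCA and 7.25% the NF-κB consensus. Windows of 7 members were searched, and those of Smad2, Smad4 and Smad7 were not. Of the 7 members searched, none held AGGTCA or the NF-κB consensus in any window. Smad5, Tgfbr1 and Tgfbr2 held CAGAC, and Smad5, Smad9 and Tgfbr1 held GGCGCC. These are matches of letters only.

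Taken over the family, no member passed the threshold in KO against WT/HET by edgeR (0 of 10, adjusted p under 0.05 and absolute log2 fold change over 1), as for 0% of the genes tested. At an unadjusted p under 0.05, 5 of 10 members (Smad1, Smad4, Smad6, Tgfbr1 and Tgfbr2) were higher in KO and none lower, beside 15.7% of all genes higher and 9.48% lower. The median log2 fold change was 0.88 over the members and 0.13 over all genes. DESeq2 with shrunken fold changes, which called 7.1% of all genes, called Smad1 (2.21, adjusted p = 0.000999) and Smad6 (2.14, adjusted p = 0.002). It gave no adjusted p for Smad9, which could therefore not be called. Without HET2, Smad1 and Smad6 also passed by edgeR (adjusted p = 0.0400 for both), beside 3.54% of all genes. With no sex term, 0 of 10 members had an unadjusted p under 0.05, beside 2% of all genes, and the median was 0.34, beside 0.00089 over all genes. Without WT3 and HET3, 3 of 10 members (Smad1, Smad4 and Smad6) did, beside 5.08% of all genes.

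Sample by sample, no member had both KO libraries above all 6 WT and HET libraries, beside 3.05% of all genes. The exact two-sided permutation p of log2 CPM for 2 against 6 libraries lay between 0.214 (Smad6 and Tgfbr1) and 0.857 (Smad7), where the smallest p that this design allows is 0.0714. Against the 3 female references alone, 6 of 10 members (Smad1, Smad3, Smad4, Smad6, Tgfbr1 and Tgfbr2) had both KO libraries above all 3, beside 27.1% of all genes. This design cannot go below p = 0.2 in the exact test, which these 6 members reached. In the sex-corrected log2 values that the authors deposited, the same 6 genes had both KO libraries above all 6 others, beside 19.3% of all genes. No KO library is male, so a correction for sex again in effect sets KO against the 3 female references. It is not a separate comparison.

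**Figure D3:**
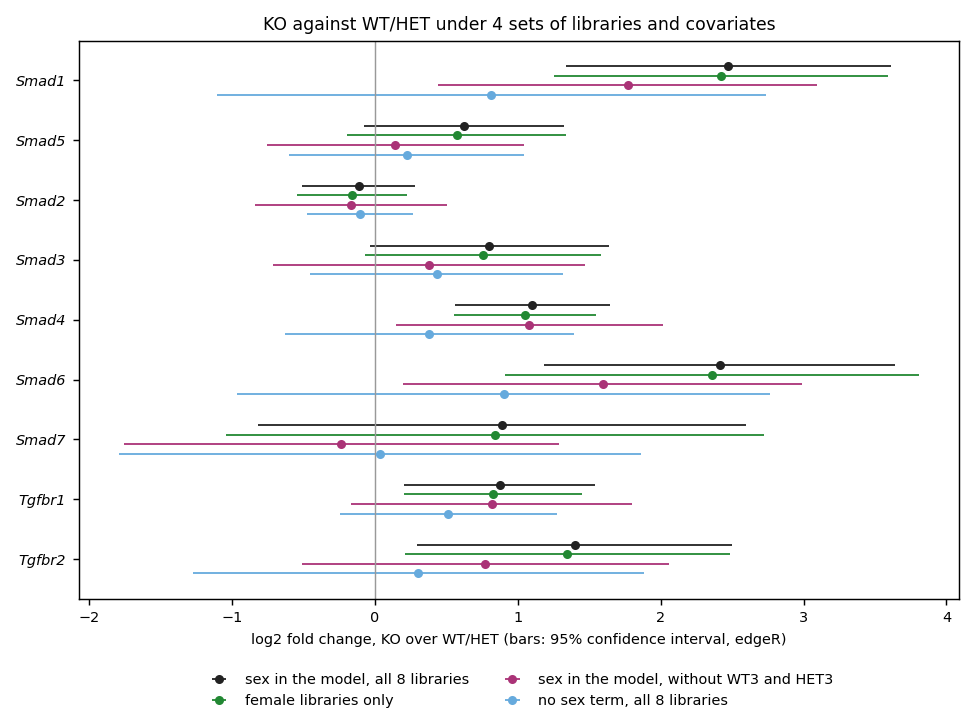
Log2 fold change of KO over WT/HET (horizontal axis, points) with 95% confidence intervals (bars) from edgeR for 9 members, without Smad9, under 4 sets of libraries and covariates. Intervals of Smad1, Smad4 and Smad6 stayed above 0 in 3 of the 4 sets, which are not separate comparisons. The fit of all libraries with sex and the female-only fit both in effect set KO against WT3, HET2 and HET3. Without WT3 and HET3, HET2 is the only female reference. All intervals spanned 0 with no sex term, and Smad7 changed sign without WT3 and HET3.

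The same 3 female references enter the comparison of male with female libraries among WT and HET, so the values are given side by side. The log2 fold change of male over female was 2.19 (0.83 to 3.54) for Smad1, where KO over WT/HET gave 2.47. It was 2.29 (0.73 to 3.85) for Smad6, where KO over WT/HET gave 2.41, and 1.06 (0.65 to 1.47) for Smad4, where it gave 1.10. For Tgfbr2 it was 1.45 (0.17 to 2.72) beside 1.40, for Tgfbr1 0.42 (-0.13 to 0.98) beside 0.87, and for Smad7 1.47 (-1.05 to 3.98) beside 0.89. No member passed the threshold by edgeR, beside 0.0146% of all genes. At an unadjusted p under 0.05, 4 of 10 members (Smad1, Smad4, Smad6 and Tgfbr2) were higher in male libraries, beside 10.7% of all genes, and DESeq2 called Smad1 and Smad6 here too, beside 5.69% of all genes. In 5 of 10 members (Smad1, Smad4, Smad5, Smad6 and Tgfbr2) every male library was above every female one, beside 21.1% of all genes. HET2, the one female library left without WT3 and HET3, lay above the male HET1 for Smad2, Smad3 and Smad7. Without HET2, 5 members (Smad1, Smad4, Smad6, Smad7 and Tgfbr2) passed the threshold by edgeR, beside 2998 of all 20610 genes.

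HET was also compared with WT. By edgeR none of the 10 members passed the threshold, as for 0% of all genes, and DESeq2 called 0.0826% of all genes and no member. At an unadjusted p under 0.05, Tgfbr1 and Smad9 were lower in HET, beside 1.82% of all genes lower. Tgfbr1 averaged 30.4 CPM ± 6.52 in WT and 17.99 ± 3.09 in HET (SD, n = 3 each), a log2 fold change of -0.60 (-1.15 to -0.04, adjusted p = 0.932). These were also the members with all WT libraries above all HET libraries, beside 4.85% of all genes, and the exact two-sided permutation p of 0.1 is the smallest that 3 against 3 allows. The other members had log2 fold changes between -0.54 (Tgfbr2) and 0.12 (Smad7). It is not established that WT and HET libraries of equal number form pairs. With genotype and sex removed, their deviations correlated at -0.52 (WT1, HET1), 0.31 (WT2, HET2) and -0.084 (WT3, HET3). Removing both ties the deviations together (WT3 and HET1 correlated at 1), so these values cannot decide on pairing. The replicate block is given as an alternative. With it, the members at an unadjusted p under 0.05 were Smad1 (-0.89, -1.63 to -0.16) and Tgfbr2 (-0.99, -1.79 to -0.19), both lower in HET, beside 4.39% of all genes. Their adjusted p by edgeR was 0.866 and 0.851, and Tgfbr1 had a log2 fold change of -0.70 (-1.39 to 0.0023). In 8 of 10 members, all but Smad2 and Smad7, the WT library was above the HET library of the same number in each pair, beside 21.4% of all genes. This count has no correction for sex, and WT2 was male and HET2 female. It includes Smad9, which was near the floor, and Smad5, which was at 19.37 CPM in WT3 and 19.28 CPM in HET3. The fit of HET against WT also rested on HET2. Without it, 5 members (Smad1, Smad3, Smad9, Tgfbr1 and Tgfbr2) were lower in HET at an unadjusted p under 0.05, beside 9.02% of all genes, with log2 fold changes of -0.99 for Smad1 and -1.05 for Tgfbr2, and none passed the threshold by edgeR.

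Smad1, Smad6 and Tgfbr2 moved with the LT-HSC marker sum. From high to low, the order of libraries for Smad1 was WT2, KO1, WT1, KO2, HET1, HET2, WT3 and HET3, the order of the number of genes with at least 10 reads (15125 in WT2 to 12308 in HET3). Tgfbr2 had exactly the order of the LT-HSC marker sum. A sum of 8 endothelial markers, many of which stem cells also express, ran from 226 CPM in WT1 to 17.3 and 5.10 CPM in WT3 and HET3, with 214 and 113 CPM in KO1 and KO2. Per 100 CPM of LT-HSC markers, Smad1 was at 5.26 and 4.997 CPM in KO, and the WT and HET libraries ranged from 1.88 to 5.96 CPM. Smad6 was at 1.32 and 1.18 CPM in KO against 0.564 to 1.83 CPM. On this scale both were above the 3 female references in KO and inside the range of all 6. Smad2, Smad3 and Smad5 were below the 3 female references. Tgfbr2, at 2.853 CPM in both KO libraries, lay inside the range of the WT and HET libraries (2.23 to 4.20 CPM). Per 100 CPM of the endothelial markers, Smad1 (21.9 and 29.5 CPM in KO against 19.8 to 69.8 CPM) and Smad6 lay inside the range of the 3 female references. The other members compared were below it. Both marker sums were higher in KO than in these references, with 665 and 890 against 189 to 363 CPM for LT-HSC markers. For endothelial markers the values were 113 and 214 against 5.10 to 58.1 CPM. A gene with level CPM, such as Smad2, therefore falls below the references on either scale. The share of all genes was not computed, so these positions are not shown to be particular to the members. Mecom is both a marker and a SMAD partner. The part of these marker levels in the results was not tested.

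**Figure D4:**
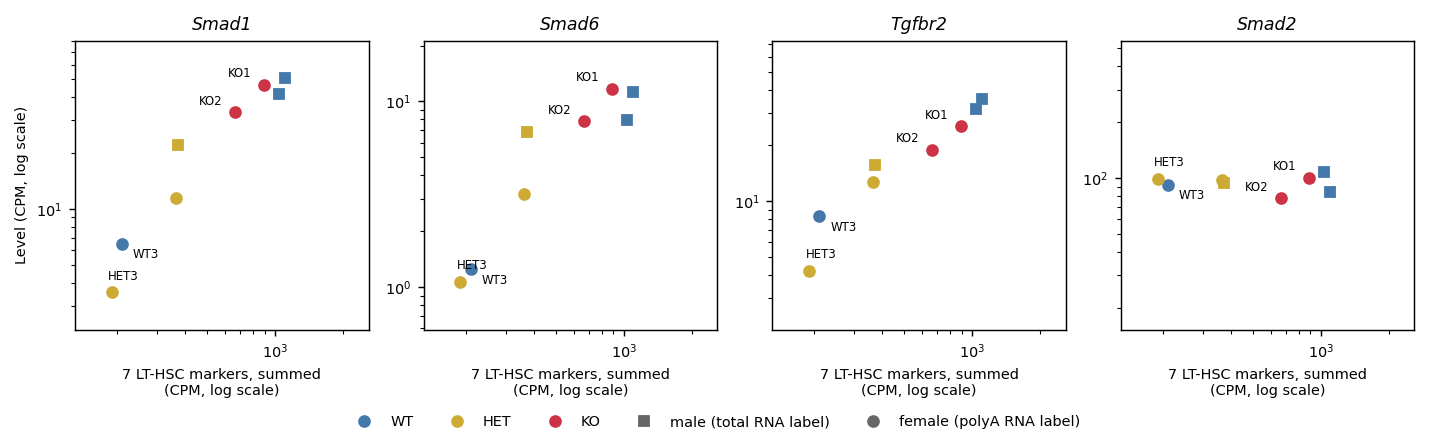
Level of Smad1, Smad6, Tgfbr2 and Smad2 (vertical axes, CPM, log scale, the same span in each panel) against the summed level of 7 LT-HSC markers (horizontal axes, CPM, log scale) in the 8 libraries, colored by genotype, with squares for male and circles for female embryos. Smad1, Smad6 and Tgfbr2 were high where the marker sum was high and lowest in WT3 and HET3, whereas Smad2 was level.

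The genes whose pattern over the 8 libraries was most like that of each member were sought among the 10099 genes with a mean of at least 5 CPM, by the root mean square difference of centered log2 levels. Closest to Smad1 were Tet1 (0.119), Ldlrad3 (0.134) and Parp12 (0.164). Closest to Smad6 were Peg13 (0.191), Yes1 (0.216) and Jak3 (0.228), and to Smad7, with the poorest matches of all, Gm20300 (0.250), Ift43 (0.283) and Hist1h2bc (0.285). Tgfbr2 was closest to Mpnd, Cntln and Camk1 (0.123 to 0.152), Tgfbr1 to Rnf6, Ric1 and Sufu (0.101 to 0.113), and Smad4 to Scaper, Wsb1 and Plscr3 (0.114 to 0.125). Smad5 was closest to Elf1, Tcf4 and 1810058I24Rik (0.104 to 0.114), Smad3 to 4931414P19Rik, Map7 and Cisd3 (0.103 to 0.160), and Smad2 to Rab28, Chic2 and Cd55 (0.0680 to 0.0719).

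The rest of the pathway was described by a list of 87 genes in 7 roles, of which 75 were tested. None passed the threshold by edgeR, and DESeq2 called 9 of 75 (Inha, Eng, Acvr1, Acvr1b, Acvr2b, Bmpr2, Furin, Id3 and Cdkn1c), beside 7.1% of all genes. At an unadjusted p under 0.05, 24 of 75 were higher in KO, beside 15.7% of all genes, and 4 were lower, beside 9.48%. The median log2 fold change was 0.70 with sex in the model and 0.22 with no sex term, beside 0.13 and 0.00089 over all genes. With no sex term, 1 of 75 had an unadjusted p under 0.05, beside 2% of all genes. Without WT3 and HET3, 2 of 75 did, beside 5.08% of all genes.

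Of the other receptors of the family, 6 of 10 tested were higher and 1 lower at an unadjusted p under 0.05, beside 15.7% and 9.48% of all genes, with a median log2 fold change of 1.29. With no sex term, 0 of 10 had an unadjusted p under 0.05, beside 2% of all genes. The median was then 0.62, beside 0.00089 over all genes. Acvr1, a type I receptor for BMPs, was at 4.01 and 3.10 CPM in KO and at most at 2.62 CPM elsewhere, so that both KO libraries were above all 6 others (log2 fold change 2.69, adjusted p = 0.148 by edgeR). It was named for that position, which 3.05% of all genes shared. With no sex term its log2 fold change was 1.48 (unadjusted p = 0.094 by edgeR). Eng, the co-receptor endoglin, was at 103.6, 90.5 and 22.2 CPM in WT, 39.7, 30.9 and 15.01 CPM in HET, and 101.2 and 65.4 CPM in KO, with WT3 and HET3 lowest. Its log2 fold change was 1.87, and those of the activin receptors Acvr1b and Acvr2b were 2.07 and 1.69. Bmpr2, the type II BMP receptor, was at 37.0 and 35.0 CPM in KO and ranged from 7.97 in WT3 to 45.7 CPM in WT2 in the references (1.41).

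By role, the counts are again of genes with an unadjusted p under 0.05 in the fit with sex, to be read beside 15.7% of all genes higher. Among the ligands 1 of 11 tested was higher (Inha, the inhibin α subunit, 2.79), and Inhba, which encodes the activin A subunit, was at 4.11 and 0.639 CPM in KO and 0 to 7.10 CPM elsewhere. Among genes of ligand storage and release, 2 of 10 were higher, a share near that of all genes. Furin, a protease that matures TGF-β precursors, had a log2 fold change of 1.41, while Lrrc32 (2.52), Thbs1 (2.00) and Ltbp1 (-1.95) had wide errors, with SEs of 1.66, 1.10 and 1.08. Of the antagonists 2 of 5 were higher, and Bambi, a decoy receptor without a kinase domain, had both KO libraries at 15.7 and 15.8 CPM, just above the highest of the others at 15.5 CPM. Bambi too was named for that position, which 3.05% of all genes shared.

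Inside the cell, 5 of 21 SMAD regulators were higher and 2 lower, with a median log2 fold change of 0.37, and Zfyve9, the SMAD anchor SARA, was at 2.84 and 3.20 CPM in KO and 0.534 to 5.81 CPM elsewhere (1.40, SE 0.814). Of 9 SMAD partners in transcription 4 were higher and 1 lower. Mecom, which encodes EVI1, ranged from 1.36 CPM in HET3 to 237 CPM in WT1, with 178 and 106 CPM in KO (log2 fold change 2.82), and Foxh1 was at 0 in WT1 and WT2, at 0.294 and 1.67 CPM in KO and at 1.44 to 5.80 CPM in the others (-2.31, SE 1.68). Of the known target genes 4 of 9 were higher. Id3, a BMP target, was at 78.6 and 60.0 CPM in KO, 76.8, 81.3 and 23.6 CPM in WT, and 33.8, 26.0 and 3.97 CPM in HET (1.95). Cdkn1c, which encodes the cell cycle inhibitor p57, was at 81.0 and 55.5 CPM in KO, 80.5, 76.1 and 11.3 CPM in WT, and 31.7, 25.4 and 6.53 CPM in HET (2.24). Both targets were thus at a like level in WT1, WT2 and KO1 and lowest in HET3, as was Smad1.

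**Figure D5:**
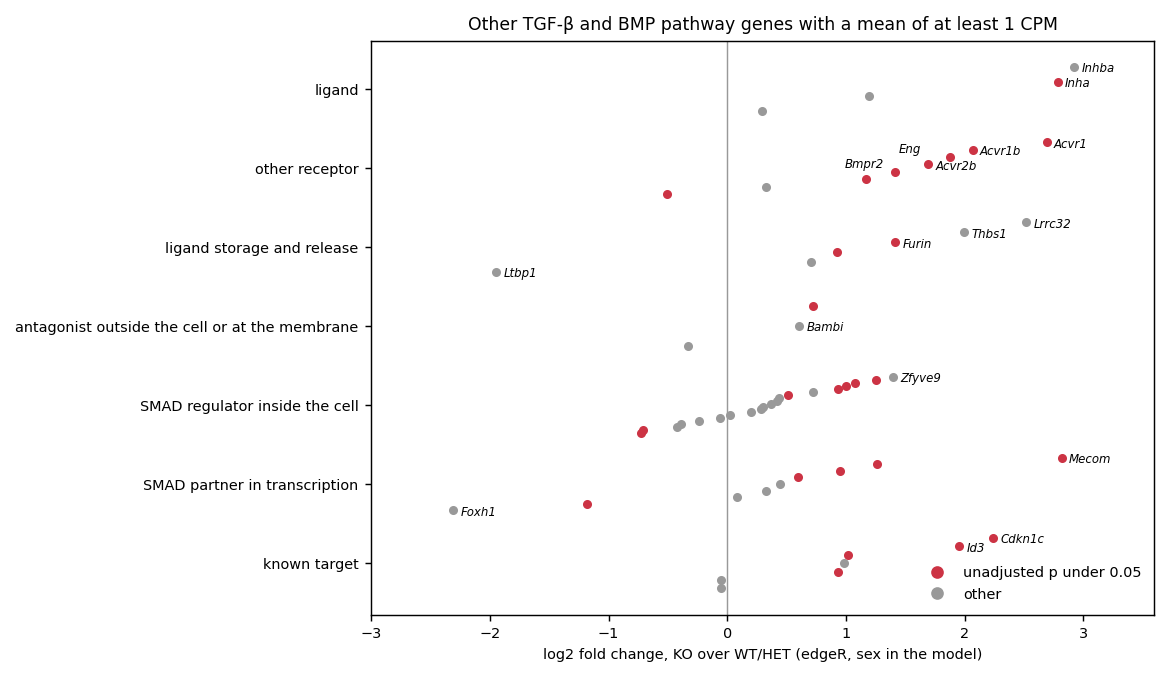
Log2 fold change of KO over WT/HET (horizontal axis, edgeR with sex in the model) of the listed TGF-β and BMP pathway genes with a mean of at least 1 CPM, by role (vertical axis), each point a gene, with red for an unadjusted p under 0.05. The genes named in the text by rule are labelled. The other receptors lay mostly to the right of 0, with a median of 1.29 over all that were tested.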

How the data were processed

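Bulk RNA-seq of LT-HSCs from 8 embryos (3 IκBα WT, 3 HET and 2 KO), called independent biological replicates by the study, was analyzed. The authors deposited raw read counts per gene. As far as their methods say, reads were trimmed with Trim Galore 0.6.6, aligned with STAR 2.7.8 to GRCm38 and counted per gene from unique alignments, with the strand setting not given in the sources used here. The deposited log2 values, a variance-stabilizing transformation (DESeq2 1.38.3 in the submitters' processing notes) corrected for sex by the authors, served only for the count of libraries that did not overlap.

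Genes with at least 10 reads over the 8 libraries (20610 of 55487) were tested with edgeR 4.0.16 (TMM, quasi-likelihood test, R 4.3.3), with the reference (WT together with HET) and the sex term of the methods. A call needed a Benjamini-Hochberg adjusted p under 0.05 over all genes plus a log2 fold change beyond 1 in size. The alternative tool was DESeq2 1.42.0, with apeglm 1.24.0 shrinkage. Single genes were compared by exact permutation tests of log2 CPM (prior count 2). Levels per kb used merged exons of GENCODE M21, which matched 55227 of 55487 genes, and gene coordinates are from it. The scripts were checked on simulated data.

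Members, pathway and marker lists were chosen with earlier results of these data known, and 1 gene of the LT-HSC marker list is not reported here and was left out of its sum. Pathway genes were named where their mean reached 1 CPM and either KO1 and KO2 both lay outside the range of the other 6 libraries or the absolute log2 fold change was among the 15 largest of the rest. For likeness of pattern, the 3 closest genes were named. Alternatives were other scalings, filters, references and covariates, female libraries only, the replicate block and leaving out each library. The version 4 form of edgeR and the fit without WT3 and HET3 were chosen after seeing the data. Deviations of equally numbered libraries from their group means correlated at 0.28 (WT1, KO1), 0.24 (HET1, KO1), -0.35 (WT2, KO2) and -0.12 (HET2, KO2). The deviations of KO1 and KO2 mirror each other, so these values cannot decide whether the numbers pair KO with the others. For WT and HET, equally numbered libraries correlated at 0.29, 0.20 and 0.59, each over 0.1, so the blocked values are given beside the HET results. The numbers partly follow sex, and WT2 and HET1, of unequal number, correlated at 0.40. With sex removed as well, the equal numbers correlated at -0.52, 0.31 and -0.084. That step makes the deviations of WT3 and HET1 identical (correlation of 1), so these values cannot decide on pairing. Pairing of WT with HET is not established.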

Additional observations from a re-analysis of the deposited data

How the results depend on the processing

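In KO against WT/HET, 0 of 10 members were called by edgeR, 3 with no filter on low counts (Smad1, Smad4 and Smad6, with 1106 of 31478 genes called), 2 by DESeq2, and 0 to 2 when a library was left out, the 2 (Smad1 and Smad6) without HET2, where 730 genes were called. For male against female the counts were 0, 4 with no filter (2154 of 29500 genes called) and 2 by DESeq2 (1172 of 20585 genes). They were 0 to 5 when a library was left out, with 1 without HET1 (1482 of 20610 genes) and 5 without HET2 (2998 genes). For the pathway list in KO against WT/HET they were 0 of 75, 8 of 85 with no filter and 9 of 75 by DESeq2. Left out in turn, the libraries gave 0 to 6 of 75, with 6 without HET2. The genes called beside them were 1106 of 31478 with no filter, 1463 of 20610 by DESeq2 and 730 of 20610 without HET2. Leaving out a library gave log2 fold changes of 2.13 to 2.99 for Smad1 and 2.10 to 3.08 for Smad6. With the replicate number as a block and sex kept, no member was called in any comparison, and the KO values were 1.91 for Smad1, 1.69 for Smad6 and 0.14 for Smad7, while the genes at an unadjusted p under 0.05 went from 5196 to 589. Scaling by library size alone moved the median of all genes in KO from 0.13 to 0.41. Under it the Smad2 value was 0.18, and leaving out a library gave -0.31 to 0.061 (positive without KO2). The Smad7 value was -0.23 without WT3 and HET3. In HET against WT, 22 of 126 values changed sign, none of them called in either fit. Library size alone gave -0.068 for Smad5 and -0.065 for Smad2, and at least 10 reads in every library gave -0.0043 for Smad5. The replicate block gave -0.091 for Smad5, -0.045 for Smad2, -0.22 for Smad6 and -0.51 for Smad7. No sex term gave -0.29 for Smad5, -0.88 for Smad6 and -0.83 for Smad7. The version 4 form of edgeR gave -0.14 for Smad6 and -0.18 for Smad7. Leaving out a library gave -1.06 to 0.21 for Smad1, -0.35 to 0.41 for Smad5, -0.029 to 0.12 for Smad2, -0.49 to 0.76 for Smad6, -1.30 to 1.60 for Smad7 and -1.10 to 0.031 for Tgfbr2. The causes of these changes were not tested. With 2 KO libraries, none male, the fits cannot separate genotype from what else sets the female references apart.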
